A study of Mus musculus with 6 samples.

Results

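Actin filament assembly and turnover genes encode the proteins that start, lengthen, cap, cut and recycle actin filaments. The set was given as 47 names covering the Arp2/3 complex, its activators, formins, monomer-binding proteins, the cofilin system, capping and severing proteins, and proteins bound along the filament. A row of the count table had to carry a listed name, which 44 of the 47 did, out of 24421 gene rows. The formins Diaph1, Diaph2 and Diaph3 stood in the table under older symbols that RefSeq lists as synonyms (Diap1, Diap2 and Diap3), so their values are given apart and do not enter the counts over 44.

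The cells were mouse iPSCs (induced pluripotent stem cells, made by resetting body cells to a state like that of the early embryo), grown in medium with serum. The 3 SRF KO libraries came from cells with the gene of serum response factor deleted on both alleles (SRFΔ/Δ), and the 3 WT libraries from cells labelled SRFf/f, the usual notation for undeleted alleles flanked by recombination sites. The labels do not say how the deletion was made, whether replicates are separate clones or cultures, or whether feeders were present, so p-values measure only the spread between these libraries, which may be technical. Total RNA was sequenced in bulk, with 26321602 to 36680156 counts per library.

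Actin exists as monomers and as filaments, and cells turn one into the other without pause. Profilin and thymosin hold monomers, Arp2/3 and formins build branched and straight filaments, cofilin with its helper Wdr1 takes them apart, and tropomyosins and calponins coat and stabilise them. SRF is tied to this cycle: its MRTF cofactors bind actin monomers and are freed to act with SRF when monomers are used up, and many SRF target genes encode actin and its partners. SRF binds DNA at the CArG box, which is 2 C, then 6 bases that are A or T, then 2 G.

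The deleted gene was lower in all SRF KO libraries. Srf stood at 3.97 ± 0.707 CPM in the SRF KO libraries (TMM-scaled CPM, a count divided by its library's scaled total and set to a common depth, SD, n = 3). The WT mean was 34.5 ± 4.14 CPM, so that the log2 fold change was -3.12 (SE 0.13, adjusted p 8.1e-09). Each adjusted p given here comes from the quasi-likelihood test of edgeR, adjusted by Benjamini-Hochberg over all features. Markers of the labelled cell type were present in both groups, at a lower sum in SRF KO. The 18 pluripotency markers summed to 6989 to 7117 CPM in SRF KO and to 8329 to 8907 CPM in WT. At an adjusted p under 0.05, 9 of them were lower in SRF KO, 1 was higher and 8 were not called. Markers of other cells also differed. The 20 primitive and visceral endoderm markers summed to 3679 to 3933 CPM in SRF KO and to 462 to 491 CPM in WT, with 18 of 19 tested higher and Ttr at 0 in all WT libraries. The 24 fibroblast markers summed to 1815 to 2209 CPM against 890 to 1035 CPM, with 23 higher and none at 0 throughout a group. The 10 blood cell markers summed to 235 to 283 CPM against 164 to 188 CPM, with 6 higher.

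The actin filament genes were called about as often as genes in general, and their median lay near 0. All 44 passed the filter on low counts. Of these, 7 rose and 12 fell in the knockout (adjusted p under 0.05), and 25 did not pass the threshold. The 19 called make up 43.2% of the 44, and 42.4% of all 14778 genes tested were called, 21.2% higher and 21.3% lower. Among all genes with a mean of at least 500 counts, 42.7% were called, against 48.7% of the 39 such genes in the set. The median log2 fold change was -0.03 over the 44 genes and -0.01 over all genes, and the median absolute value was 0.13 against 0.21. With a mean of at least 500 counts required, that absolute median was 0.145 in the set and 0.142 over all genes. The 44 genes summed to 6925 to 7100 TMM-scaled CPM in SRF KO and to 7169 to 7308 CPM in WT. These ranges did not overlap, although the means differed by a factor of 0.967. As an unscaled share of gene counts, the set did not separate the groups. That share ran from 0.734% (replicate 2) up to 0.761% (replicate 3) among SRF KO libraries, which encloses the WT shares of 0.752% to 0.756%. A small fall of the whole set therefore depended on the scaling. The number of genes that fell was the value most open to a single library: it was 6 without SRF KO replicate 1, whereas 15 fell without WT replicate 2.

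**Figure D1:**
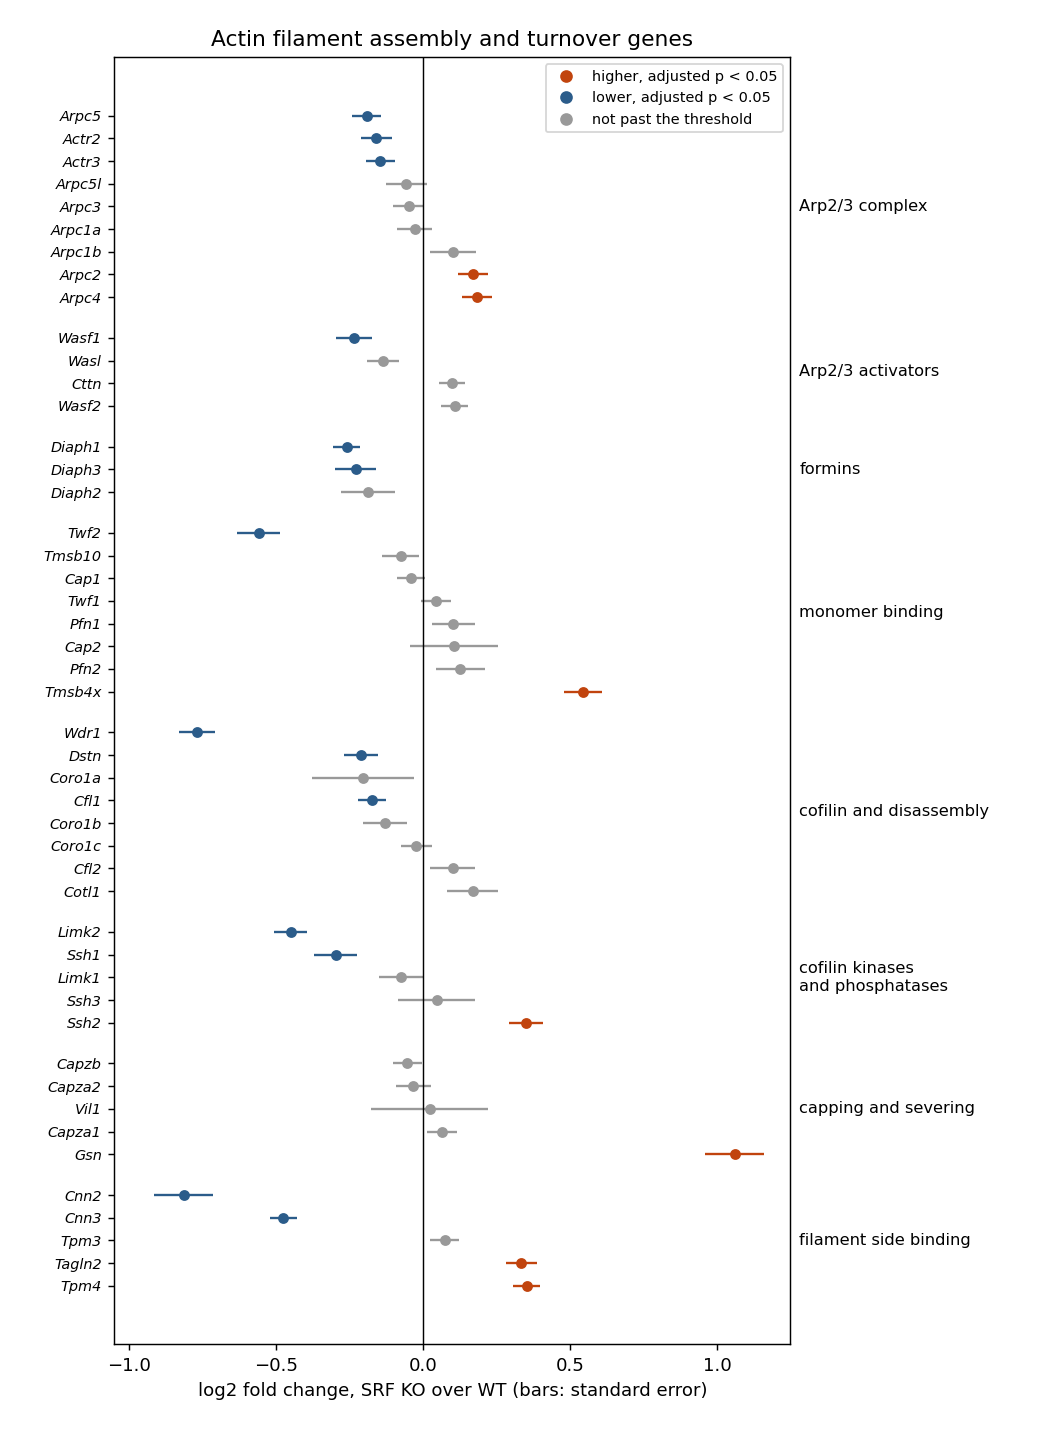
Log2 fold change of SRF KO over WT for the 44 genes and the 3 formins, grouped by role, with bars for the standard error and colours for the test result (n = 3 libraries per group). Most points lie within 0.3 of 0 on the log2 scale, while Gsn at 1.06 and Cnn2 at -0.81 mark the ends.

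Within this flat total, single genes moved by clear amounts in both directions. Gsn, which encodes the severing and capping protein gelsolin, rose 2.08-fold, and the monomer-binding thymosin gene Tmsb4x rose by 45.7%. The falls were led by Cnn2 (a calponin), Wdr1 (the cofilin helper AIP1), Twf2 (a twinfilin), Cnn3 (another calponin) and Limk2 (a kinase that inactivates cofilin), whose SRF KO levels were between 0.569 and 0.732 times those of WT. Of the 44 genes, 23 did not overlap between groups, 10 higher and 13 lower in SRF KO. Over all genes tested these shares were 26.2% higher and 26.5% lower.

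Of the 5 genes for proteins bound along the filament, 2 were higher, 2 were lower and 1 did not pass the threshold, beside the 42.4% called over all genes. Calponins bind actin filaments and stabilise them, and the smooth muscle calponin gene is a known target of SRF. Cnn2 was measured at 29.7, 25.7 and 33.6 CPM in SRF KO replicates 1 to 3 and at 55.1, 45.5 and 55.8 CPM in WT replicates 1 to 3. Even the highest SRF KO library lay below the lowest WT library, and the log2 fold change was -0.81 (SE 0.10, adjusted p 6.2e-05). In a bulk sample, less RNA per cell and fewer cells that express a gene cannot be told apart. Cnn3 had the higher level per kb of exon of the pair in WT (154 against 21.2 CPM per kb). Its levels were 333, 336 and 339.6 CPM in SRF KO, with little spread, and 477, 470.0 and 455 CPM in WT (log2 fold change -0.48, SE 0.05, adjusted p 8.5e-06).

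Tpm4 and Tagln2 went the opposite way. Tpm4, which encodes a tropomyosin of non-muscle cells, had 135, 136 and 142 CPM in the SRF KO libraries and 108, 109 and 107 CPM in the WT libraries. The groups were separated by far more than their spread (log2 fold change 0.35, SE 0.05, adjusted p 0.0001). Tagln2 (transgelin 2, of the same domain family as the calponins) rose by 0.33 on the log2 scale (SE 0.05, adjusted p 0.00037), from 114 ± 6.06 to 143 ± 2.91 CPM (SD, n = 3). Tpm3, the other tropomyosin gene of the set, averaged 472 ± 14.8 CPM in the knockout against 448 ± 15.8 CPM in WT and did not pass the threshold (adjusted p 0.26).

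Because SRF acts through the CArG box, promoters were searched for it. The windows span 250 bases before to 50 bases after each start in RefSeq (GRCm38.p6), and 41 of the 47 genes had at least 1 window. Twf2, Diaph1, Coro1b, Cotl1, Cttn and Arpc5l had no entry. The box reads as itself on the opposite strand, so that 1 search covers both strands. It was present for 3 of the 41 genes (7.32%) and for 1.81% of all 27025 genes with a window. With 1 base allowed to differ, the shares were 11 of 41 (26.8%) and 23.8%. Over the 10970 tested genes with a window they were 1.5% for the exact box and 19.8% with 1 base allowed to differ. The stretches below are shown because they hold the exact boxes among these genes, each box in capitals.

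The Cnn2 stretch lies at chr10:79988500-79988599 (GRCm38.p6, plus strand) and ends 1 base before the start, with the box from -56 to -47. Vil1 has its box from -73 to -64 in chr1:74409284-74409383 (plus strand), and Arpc4 from -250 to -241, at the upstream edge of its window, in chr6:113377863-113377962 (plus strand).

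Cnn2: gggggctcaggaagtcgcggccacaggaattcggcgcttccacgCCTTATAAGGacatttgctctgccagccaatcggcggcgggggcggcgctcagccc
Vil1: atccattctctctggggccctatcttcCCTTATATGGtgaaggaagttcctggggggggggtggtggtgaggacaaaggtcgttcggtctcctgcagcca
Arpc4: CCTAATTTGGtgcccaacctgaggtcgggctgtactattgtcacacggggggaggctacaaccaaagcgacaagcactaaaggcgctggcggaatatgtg

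These 3 genes differed in their response. Cnn2 fell by 0.81 on the log2 scale, Arpc4 rose by 0.18, and Vil1 was barely expressed in either group. A box that differs at 1 base was found before the start of 4 further genes past the threshold in the cofilin system, namely Wdr1, Cfl1, Dstn and Limk2, all of which fell, of Gsn, which rose, and of Arpc1a, Ssh3 and Tpm3, which were not called. Those of Wdr1 (chr5:38561723-38561772, minus strand), Cfl1 (chr19:5490270-5490319, plus strand) and Dstn (chr2:143915205-143915254, plus strand) are shown, since these genes encode the core of filament disassembly, with the near-match in capitals. Such near-matches are common, as the share of 23.8% over all genes shows, and a match is a description of letters and not a site of binding.

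Wdr1: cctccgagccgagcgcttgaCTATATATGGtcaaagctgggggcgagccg
Cfl1: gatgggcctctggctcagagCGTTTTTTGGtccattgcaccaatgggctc
Dstn: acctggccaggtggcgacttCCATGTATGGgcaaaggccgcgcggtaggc

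The cofilin and disassembly group held 8 genes, among them the coronins and the filament binder Cotl1. Of the 8, 3 were lower, none was higher and 5 did not pass the threshold. The called share was 37.5%, against 42.4% of all genes (21.3% lower). Wdr1 encodes AIP1, which speeds the breakup of filaments that cofilin has bound. Its values were 77.1, 67.2 and 78.96 CPM in SRF KO replicates 1 to 3 and 126, 126 and 129 CPM in the WT replicates. The WT libraries were nearly equal and all SRF KO libraries lay far below them, giving a log2 fold change of -0.77 (SE 0.06, adjusted p 2.1e-06).

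Cofilin and its relative destrin bind and sever filaments, and they fell by little. Cfl1 went from a WT mean of 917 ± 29.6 CPM to 813 ± 22.6 CPM in the knockout (SD, n = 3), which is -0.17 on the log2 scale (SE 0.05, adjusted p 0.014). Dstn went from 508 ± 38.0 to 438 ± 10.1 CPM (-0.21, SE 0.06, adjusted p 0.012). Both calls were lost in some fits with 1 library fewer, at folds of similar size. That of Cfl1 was lost without SRF KO replicate 1 (-0.18) or SRF KO replicate 2 (-0.15), and that of Dstn without SRF KO replicate 1 (-0.20) or SRF KO replicate 3 (-0.21). The muscle-type cofilin Cfl2, the coronins Coro1a, Coro1b and Coro1c, which bind filaments and work with Arp2/3 and cofilin, and Cotl1, a coactosin-like filament binder, had log2 fold changes between -0.20 and 0.17 and did not pass the threshold. Without WT replicate 2, Cfl2 (0.20), Coro1a (-0.39) and Coro1b (-0.20) passed it, and without WT replicate 3 Cotl1 (0.26) did.

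Cofilin is switched off by LIM kinases and switched on again by slingshot phosphatases, and genes of both kinds changed. Limk2 stood at 71.5, 66.6 and 70.1 CPM in SRF KO and at 95.1, 89.4 and 99.9 CPM in WT. All SRF KO libraries were below all WT libraries, by 0.45 on the log2 scale (SE 0.06, adjusted p 6.5e-05). Limk1 had a log2 fold change of -0.07 and did not pass the threshold, although it did without WT replicate 2 (-0.15). The slingshot genes split. Ssh1 fell by 0.30 (SE 0.07, adjusted p 0.0074) on the log2 scale. Ssh2 rose from 27.3, 27.6 and 27.0 CPM in WT to 34.4, 34.8 and 35.2 CPM in SRF KO, with very narrow groups and a log2 fold change of 0.35 (SE 0.06, adjusted p 0.00051). Ssh3, at 5.05 to 7.43 CPM in WT and 6.53 to 6.91 CPM in SRF KO, did not pass it.

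**Figure D2:**
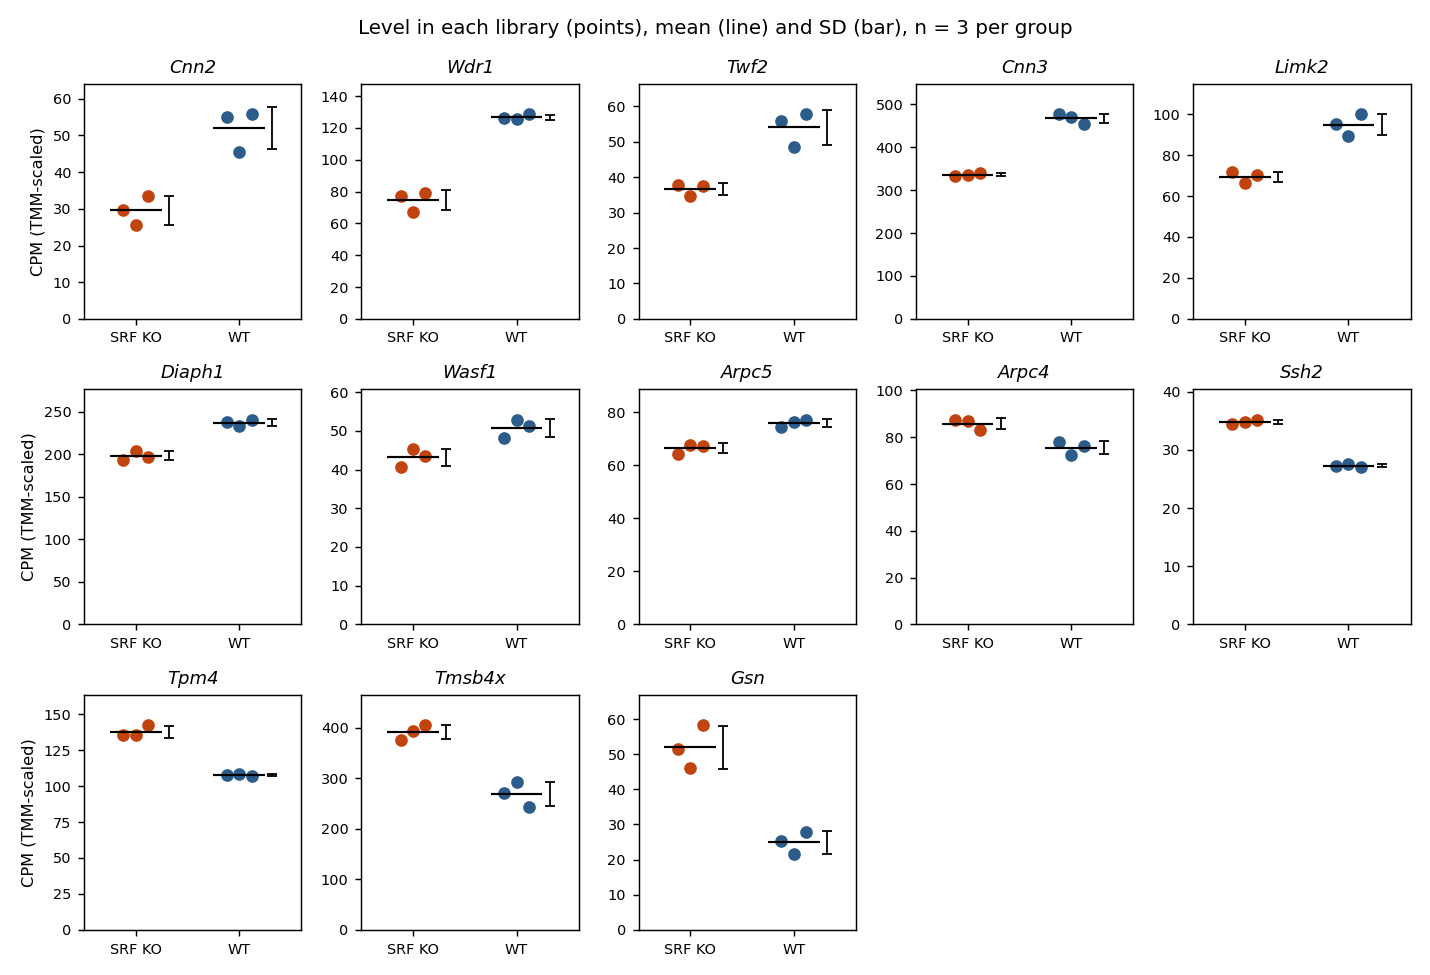
TMM-scaled CPM of 13 genes in each library (points), with the group mean (line) and SD (bar), for SRF KO and WT (n = 3 each); every vertical axis starts at 0. In each panel the groups do not overlap, with Gsn showing the largest relative gap and Arpc4 and Arpc5 among the smallest.

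Among genes that cap or cut filaments, gelsolin was the 1 call in 5 (20%, beside 42.4% of all genes tested). Gsn was at 51.5, 46.0 and 58.2 CPM in SRF KO replicates 1 to 3 and at 25.2, 21.5 and 27.9 CPM in WT replicates 1 to 3. The groups were far apart, with a log2 fold change of 1.06 (SE 0.10, adjusted p 8.0e-06), a 2.08-fold rise and the largest of the 44 genes. No other of the 44 reached a log2 fold change of 1 in either direction. Subunit genes of the capping protein that closes the fast-growing end, Capza1, Capza2 and Capzb, had log2 fold changes of 0.06, -0.03 and -0.05 and did not pass the threshold. Capza1 passed it without WT replicate 2 (0.11).

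Villin, encoded by Vil1, belongs to the gelsolin family and builds the microvilli of absorptive epithelia, including the visceral endoderm. It had 53, 34 and 40 counts in SRF KO and 58, 35 and 45 counts in WT, or 1.55 ± 0.371 and 1.51 ± 0.131 CPM (SD, n = 3). The groups overlapped (log2 fold change 0.02, SE 0.20, adjusted p 0.94). This was so in SRF KO libraries whose summed endoderm markers were 7.98 times the WT level.

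The rises of Gsn, Tmsb4x, Tpm4 and Tagln2 occurred in libraries that also had 2.13 times the summed fibroblast markers of WT. Gsn and Tagln2 had their libraries in the same order as that sum within both groups, as did 2 genes that fell, Cnn2 and Wdr1, and 4 that were not called. Together these were 8 of the 44 genes (18.2%), against 9.57% of all genes tested. The part of fibroblast-like or endoderm-like cells in these rises was not tested.

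**Figure D3:**
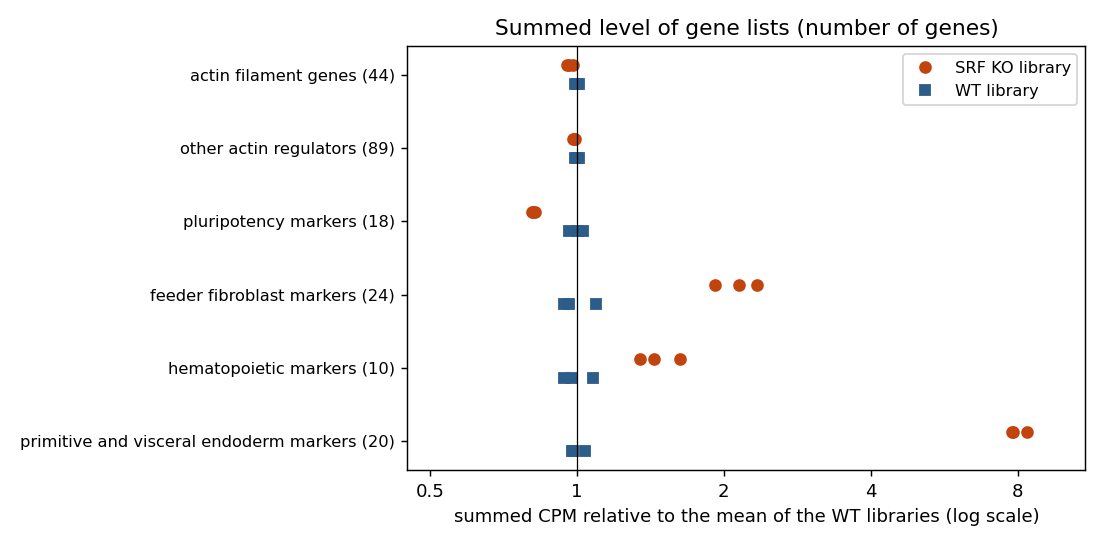
Summed CPM of each gene list in each library, divided by the mean of the 3 WT libraries, on a log axis, with circles for SRF KO and squares for WT. The 44 actin filament genes and 89 other actin regulators stay near 1, the fibroblast markers lie near 2 and the endoderm markers near 8 in SRF KO.

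The monomer pool is set by thymosins, profilins, twinfilins and cyclase-associated proteins. Of their 8 genes, 1 rose, 1 fell and 6 did not pass the threshold, so that 25% were called beside 42.4% of all genes tested. Thymosin beta 4, from Tmsb4x, sequesters monomers. Its gene was at 376, 394 and 404 CPM in the SRF KO libraries and at 270.3, 292 and 243 CPM in the WT libraries. The lowest SRF KO library was well above the highest WT library (log2 fold change 0.54, SE 0.07, adjusted p 5.0e-05). Its relative Tmsb10 was at 595, 532 and 609.6 CPM in SRF KO and at 621, 637 and 572 CPM in WT, with overlapping groups (adjusted p 0.37).

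Twinfilins bind monomers and filament ends. Twf2 was at 37.9, 34.7 and 37.6 CPM in SRF KO and at 55.9, 48.5 and 57.8 CPM in WT. Its groups were clearly apart, with a log2 fold change of -0.56 (SE 0.07, adjusted p 9.0e-05), while Twf1 at 0.04 was not called. Pfn1, the main profilin gene, averaged 451 ± 22.5 CPM in the knockout against 420 ± 45.3 CPM in WT (SD, n = 3), a difference within the spread of WT. Pfn2, Cap1 and Cap2 had log2 fold changes of 0.13, -0.04 and 0.11 and were not called.

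Arp2/3, the complex that nucleates branches, showed small shifts in both directions. Of its 9 genes, 2 rose, 3 fell and 4 were not called, and every log2 fold change lay between -0.19 and 0.18. Calls thus made up 55.6% of the complex, beside 42.4% of all genes tested. Arpc4, a core subunit that contacts the mother filament, was at 87.5, 87.1 and 83.0 CPM in SRF KO and at 77.8, 72.6 and 76.3 CPM in WT (log2 fold change 0.18, SE 0.05, adjusted p 0.013). The highest WT library was just below the lowest SRF KO library. Arpc2, its partner in that contact, also rose, by 0.17 (SE 0.05, adjusted p 0.020).

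The actin-related proteins themselves, which form the first pair of the new branch, went the other way. Actr2 and Actr3 had log2 fold changes of -0.16 and -0.15 (adjusted p 0.034 and 0.035). Arpc5 was at 64.3, 67.8 and 67.2 CPM in SRF KO and at 74.4, 76.2 and 77.1 CPM in WT, a fall of similar size (-0.19, SE 0.05, adjusted p 0.0084). Arpc1a, Arpc1b, Arpc3 and Arpc5l had log2 fold changes between -0.06 and 0.10 and were not called.

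None of the 5 calls in the complex held throughout. Without SRF KO replicate 1 all 5 were lost (Arpc2 0.18, Arpc4 0.17, Arpc5 -0.17, Actr2 -0.14, Actr3 -0.12). Actr2 and Actr3 were also lost without SRF KO replicate 3 (-0.15 and -0.13) or WT replicate 1 (-0.17 and -0.14), and Arpc2 also without SRF KO replicate 2 (0.17), SRF KO replicate 3 (0.17), WT replicate 1 (0.17) or WT replicate 3 (0.13).

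Arp2/3 is switched on by WASP and WAVE proteins and held at branches by cortactin. Of their 4 genes, only Wasf1 (WAVE1) was called, as lower (25%, beside 42.4% of all genes tested). It had 40.7, 45.3 and 43.5 CPM in SRF KO and 48.2, 52.9 and 51.3 CPM in WT (log2 fold change -0.23, SE 0.06, adjusted p 0.0097), and its call was lost without SRF KO replicate 1 (-0.19). Wasl (N-WASP), Wasf2 (WAVE2) and Cttn (cortactin) did not overlap between groups either, as was common (26.2% of all genes higher and 26.5% lower). At log2 fold changes of -0.14, 0.11 and 0.10, they did not pass the threshold. Cttn passed it without WT replicate 2 (0.11).

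Formins lengthen unbranched filaments and use actin monomers carried by profilin, and mDia formins are known to free MRTF to act with SRF. Diaph1 was at 194, 204 and 197 CPM in SRF KO and at 239, 233 and 241 CPM in WT. Its groups were narrow and separate, with a log2 fold change of -0.26 (SE 0.05, adjusted p 0.00091). Diaph3 fell by 0.23 (SE 0.07, adjusted p 0.019), a call lost without SRF KO replicate 1 (-0.21) or SRF KO replicate 3 (-0.21). Diaph2 had a log2 fold change of -0.19 and was not called (adjusted p 0.12), but it was without SRF KO replicate 2 (-0.27) or WT replicate 3 (-0.27).

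Most of these genes have a relative with a like function, so the balance within 15 pairs was compared as the ratio of their counts in each library, which does not depend on the scaling of libraries. The ratio did not overlap between groups for 9 of the 15. For single genes, as given above, 26.2% were higher and 26.5% lower without overlap, so that a lack of overlap was common in this comparison, and the share over all possible pairs was not computed. With 3 libraries against 3, the exact two-sided permutation test cannot go below 0.1, which these 9 reached (0.17 after Benjamini-Hochberg adjustment over the 15), so no pair could pass 0.05. Tmsb4x against Tmsb10 shifted most, by 0.62 on the log2 scale toward Tmsb4x, a 1.54-fold change of the ratio in SRF KO. Twf1 against Twf2 shifted by 0.60 toward Twf1 and Limk1 against Limk2 by 0.38 toward Limk1. Wasf1 against Wasf2 shifted by -0.34, toward Wasf2, and Tpm3 against Tpm4 by -0.28, toward Tpm4. Cfl1 against Cfl2 shifted by -0.28, toward the muscle-type gene, which still made up 4.78% ± 0.316 of the pair in the knockout, against 3.98% ± 0.300 in WT (SD, n = 3, counts per length of exon). Within the core of disassembly, by contrast, Cfl1 against Dstn moved by 0.04 and the groups overlapped (exact permutation p 0.5).

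**Figure D4:**
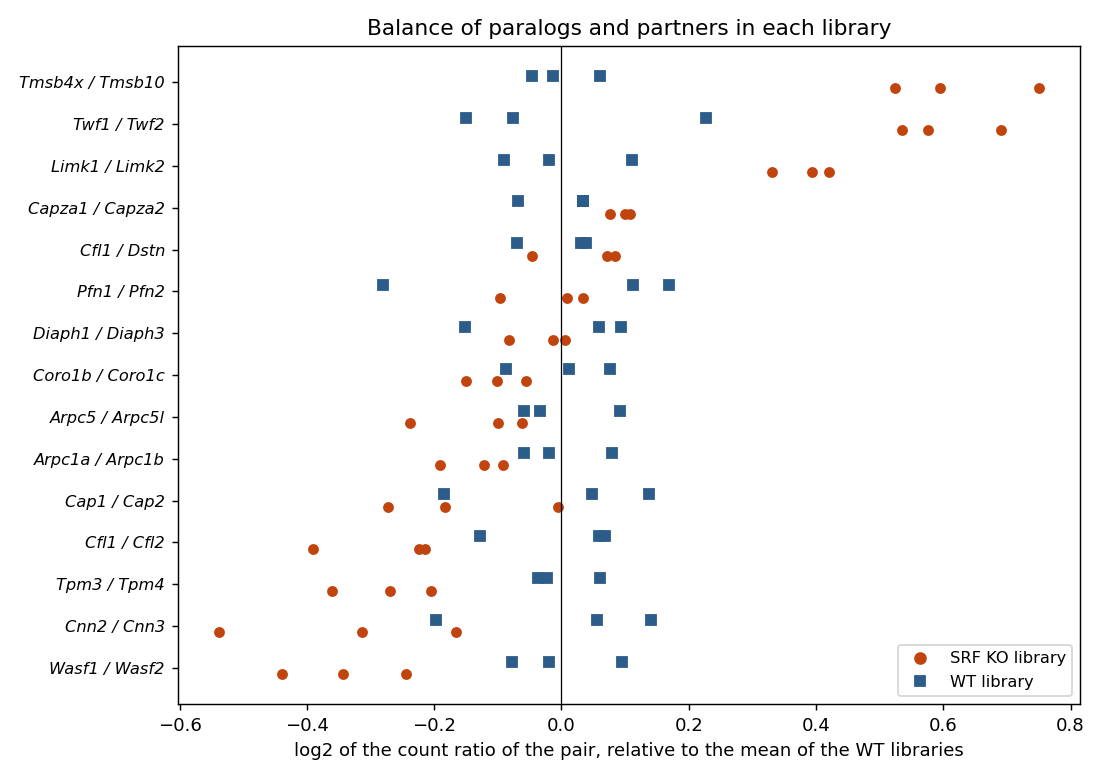
Log2 of the count ratio of each of 15 gene pairs in each library, relative to the mean of the WT libraries, with circles for SRF KO and squares for WT. The top 3 pairs lie to the right of all WT libraries, by 0.62, 0.60 and 0.38 on average, and Wasf1 against Wasf2 is the lowest row.

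To compare levels between genes, CPM was divided by the length of exons in kb (union of exons in GENCODE M21). In WT the highest levels per kb were those of Tmsb10 (478 ± 26.5), Cfl1 (322 ± 10.4), Dstn (266 ± 19.9), Tmsb4x (196 ± 17.7) and Pfn1 (175 ± 18.8, SD, n = 3), so that monomer-binding and disassembly genes came first. Tmsb4x and Pfn1, neighbours in that order, did not differ beyond their spread. In SRF KO, Tmsb4x at 285 ± 10.5 CPM per kb stood level with Cfl1 at 286 ± 7.94. The lowest were Ssh3, Cap2 and Vil1 (1.06, 0.595 and 0.425). With the longest transcript as length, 4 of the 5 highest were again in the highest 5, with Cnn3 in place of Pfn1, but Tmsb10 was then at 884. Levels per kb between genes are therefore coarse.

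The genes also varied in how steady they were between libraries. Their median coefficient of variation was 3.67% in SRF KO and 5.28% in WT. The widest were the rare Vil1 in SRF KO (24.0%) and Coro1a in WT (28.9%). WT replicate 2 was the lowest of the WT libraries for 20 genes and the highest for another 20. It therefore lay between the others for 4 of 44. Over the whole table, too, it differed most from the other WT libraries. Leaving it out added 6 calls among the 44 genes and lost none.

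The wider machinery was read from a list of 91 other actin regulators. Of these, 89 were in the table, 86 were tested, 22 rose, 27 fell and 37 did not pass the threshold, with a median log2 fold change of -0.03. The called share was 57.0%, beside the 42.4% of all genes given above. Among those that fell, Lima1 (eplin, a filament bundler) went from 171 ± 4.80 to 108 ± 2.25 CPM, Cyfip2 (a subunit of the WAVE complex) from 46.5 ± 2.42 to 28.1 ± 1.02 CPM, and Spire1 (a nucleator) from 52.9 ± 2.24 to 35.1 ± 0.421 CPM (SD, n = 3). Their log2 fold changes were -0.66, -0.73 and -0.59. Espn, which encodes the bundler espin, fell by 1.21 on the log2 scale, to 4.13 ± 0.0775 CPM. Among those that rose were the formin gene Fmn2 (0.74), Eps8 (0.63), which encodes a capping and bundling protein, Tpm1 (0.48) and Msn (0.48), which encodes moesin, a link between filaments and membrane. The other formin genes of that list, named after their values were seen, went both ways: Daam2 (1.17), Inf2 (0.45), Fmnl3 (0.39) and Fhod1 (0.23) were higher, Fmn1 (-0.46) and Daam1 (-0.19) were lower, and Fmnl1, Fmnl2 and Fhod3 were not called.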

How the data were processed

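The deposited values are raw read counts, whole numbers per gene and per transposable element subfamily for 6 libraries, not normalized, as the values show. Per the labels' protocols, the authors filtered out reads with adaptor, of low quality or without insert. The submitters' processing notes name mm10 and DESeq2; the aligner, the counting program, the annotation and the use of strand are not given in the sources used here. Many of these genes have processed pseudogenes or relatives, and some overlap other genes, so single values depend on that unknown counting.

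All 15611 features with enough counts (filterByExpr, minimum count 10) were fitted together in R 4.3.3 with edgeR 4.0.16: TMM scaling, quasi-likelihood test, SRF KO against WT, Benjamini-Hochberg adjustment over all features, threshold 0.05. SEs were taken from the fold change and its F statistic. Alternatives were DESeq2 1.42.0, other scaling, no filter, gene rows alone, stricter thresholds, each library left out and a replicate block. On simulated counts for 15611 features, 200 of them changed, edgeR recovered 100% of those changed by 1 on the log2 scale. It recovered 92% of those changed by 0.5, and 7.69% of its calls were false. No smaller change was simulated, so calls at smaller folds were not covered. Replicates differed by more than sampling noise (chi-square per degree of freedom of at least 1.83). This value was 12.9 and 15.5 for WT replicate 2 against WT replicates 1 and 3, and at most 5.13 for other pairs. A floor of 3 counts equals at most 0.117 CPM.

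The genes, lists and tests were chosen with earlier results of these data known. Among the 44 genes and the formins, values in every library were given for the largest called rise and fall of each role and for called genes that changed by 1 or more on the log2 scale. Of the 91 other regulators, the 4 higher and 4 lower with the smallest p were named. Cnn3, Tmsb10 and Vil1 in every library, and Arpc2, Actr2, Actr3, Cfl1, Dstn, Ssh1, Tagln2, Tpm3, Pfn1 and Diaph3 with their statistics, were added after their values were seen. Of those 91 names, Testk1 and Testk2 matched no row, and 7 more were matched through RefSeq synonyms.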

Additional observations from a re-analysis of the deposited data

How the results depend on the processing

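Replicate numbers were not taken as pairs. Deviations from the group means correlated at 0.0574, 0.383 and 0.236 for replicates 1, 2 and 3. All were positive and only that of replicate 1 was small, so they do not settle whether libraries of the same number belong together. With a replicate block, 11 of the 44 genes were higher and 14 lower: Wasf2 (0.11), Cttn (0.10), Pfn1 (0.11) and Cotl1 (0.18) were added to the higher, Wasl (-0.14) and Coro1b (-0.13) to the lower, and Diaph2 (-0.19) among the formins, so that all 4 genes of Arp2/3 activators passed. With calls limited to changes of 1 or more on the log2 scale, there were 1 higher and 0 lower, and 1 and 2 of the other actin regulators, as such a threshold must lower counts. Leaving out 1 library at a time gave 5 to 10 genes higher, and 6 (SRF KO replicate 1 out) to 15 (WT replicate 2 out) lower; the cause was not tested. With RLE or upper-quartile scaling, no filter, or gene rows alone, no single gene among the 44 and the formins changed its call, and under DESeq2 Actr3 lost it (-0.14). Scaling moved the median of all genes by at most 0.00972 (log2). Counting the formins, an alternative chosen after the table was seen, gave 14 genes lower. Of the 19 calls, 11 held in every refit and at an adjusted p under 0.01, though only Gsn reached a log2 fold change of 1: Gsn, Tmsb4x, Tpm4, Tagln2, Ssh2, Cnn2, Cnn3, Wdr1, Twf2, Limk2 and Ssh1.

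Genes near 0 that were not called changed sign when 1 library was left out. Their ranges were -0.082 to 0.0027 for Arpc1a, -0.058 to 0.0096 for Coro1c, -0.083 to 0.15 for Ssh3, -0.073 to 0.045 for Capza2 and -0.19 to 0.14 for Vil1. The ratios of Pfn1 to Pfn2 (-0.16 to 0.066) and of Diaph1 to Diaph3 (-0.11 to 0.016) did too. With the longest transcript as length, 40 of 47 levels per kb moved by more than 1 SD. Depth limits Vil1 and Cap2, with 34 to 100 counts per library.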
